A study of Homo sapiens with 6 samples.

Results

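The genes of the Notch pathway examined here were 9 genes picked by name: the receptors NOTCH1, NOTCH2 and NOTCH3, the ligands JAG1 and JAG2, the nuclear proteins RBPJ and MAML1, and the target genes HES1 and HES4. They made up 9 of the 22152 rows of the deposited table. A second row named JAG1 was at 0 in all 6 libraries and was not used. The libraries came from HaCaT cells, a human keratinocyte (KC) line that became immortal spontaneously. In the control group (NC), 3 cultures were transfected with a synthetic negative control mimic at 1 nM. In the other group, 3 cultures were transfected with a miR-21-3p mimic at the same dose of 1 nM. RNA of both groups was collected after 48 h, and the labels call the 3 libraries of each group biological replicates of this 1 cell line. By the labels, poly(A) RNA was sequenced from stranded mRNA libraries, while the methods of the study speak of small RNA libraries. The labels were followed here, and the mimic itself was not measured in these libraries. The libraries held between 24402588 and 27985138 reads over the rows of the table. Values are normalised read counts, meaning reads divided by 1 size factor per library.

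Notch receptors sit in the cell membrane and are switched on by ligands of the Jagged and Delta families on a neighbouring cell. Ligand binding leads to cleavage of the receptor by ADAM proteases and then by γ-secretase, and the freed intracellular part enters the nucleus. There it joins the DNA-binding protein RBPJ and a Mastermind coactivator such as MAML1, and turns on targets that include the HES repressors. In the epidermis, Notch signalling is known for promoting the exit of KCs from the basal layer and their differentiation.

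HES1 and HES4 are the readout genes among the 9, so their promoters are printed to show the letters that RBPJ is known to recognise. RefSeq promoters (GRCh38.p14, 250 bases before to 50 bases after the start site) matched all 9 genes, with 13 promoters in all because RBPJ had 5. The core motif TGGGAA was searched on both strands, where its reverse complement reads TTCCCA, and is in capitals. HES1 is shown from chr3:194135898-194136197 on the plus strand and HES4 from chr1:1000048-1000347 on the minus strand, each 5′ to 3′ along the gene.
HES1: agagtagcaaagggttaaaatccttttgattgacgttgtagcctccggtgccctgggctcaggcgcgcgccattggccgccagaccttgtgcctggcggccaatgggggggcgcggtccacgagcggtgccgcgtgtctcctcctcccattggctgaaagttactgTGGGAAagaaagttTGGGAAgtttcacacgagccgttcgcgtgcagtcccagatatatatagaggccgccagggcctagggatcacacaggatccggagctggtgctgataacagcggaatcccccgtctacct
HES4: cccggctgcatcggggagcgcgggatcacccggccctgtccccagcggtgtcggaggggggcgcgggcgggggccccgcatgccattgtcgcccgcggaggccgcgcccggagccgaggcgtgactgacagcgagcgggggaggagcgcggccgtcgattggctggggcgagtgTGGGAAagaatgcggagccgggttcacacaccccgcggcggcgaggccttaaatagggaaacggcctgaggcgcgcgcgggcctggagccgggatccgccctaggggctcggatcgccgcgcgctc
The HES1 promoter held the motif at 2 places, beginning 84 and 70 bases before the start site (positions -84 and -70), and the HES4 promoter held it once, at position -76. Among the members it was also present in 1 promoter of RBPJ, at 2 places (positions -115 and -72), so 3 of the 13 promoters held it. Of all 35116 promoters of this length, 24.0% held at least 1 copy and 3.8% held 2 or more. These matches describe letters in a window of 300 bases, and binding was not measured.

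The comparison asked how the Notch genes stood in KCs given the miR-21-3p mimic against KCs given the NC mimic. None of the 9 genes was called (limma, adjusted p under 0.05 over 14782 genes tested), against 1600 called genes, or 10.8% of those tested. RBPJ came nearest, 0.19 higher on the log2 scale with adjusted p = 0.0514, followed by JAG2, 0.17 lower (-0.17) with adjusted p = 0.107. At an unadjusted p under 0.05 limma took 2 of the 9, RBPJ and JAG2, where 28.5% of all genes tested passed. The 3 values of one group lay apart from the 3 of the other for RBPJ, MAML1 and NOTCH2, which is 3 of 9 against 31.3% of all genes tested. Both of these shares were near those of the whole table. On recovered reads, edgeR's quasi-likelihood test called 0 of the 9 against 11.1% of all genes, and DESeq2 called 0 of the 9 against 11.1%. All 9 genes passed the filter of a mean value of 10. In these bulk libraries, a change in how many cells express a gene and a change in its RNA per cell cannot be told apart.

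Genes called in either direction numbered 909 higher in miR-21-3p (6.15%) and 691 lower (4.67%), and this total varied with single libraries. It was 544 without NC replicate 1, 2961 without NC replicate 2, 179 without NC replicate 3, 279 without miR-21-3p replicate 1, 1539 without miR-21-3p replicate 2 and 368 without miR-21-3p replicate 3. With each of the 6 libraries left out in turn, the count among the 9 Notch genes was 0, except for 2 without NC replicate 2, namely JAG2 and NOTCH3.

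**Figure D1:**
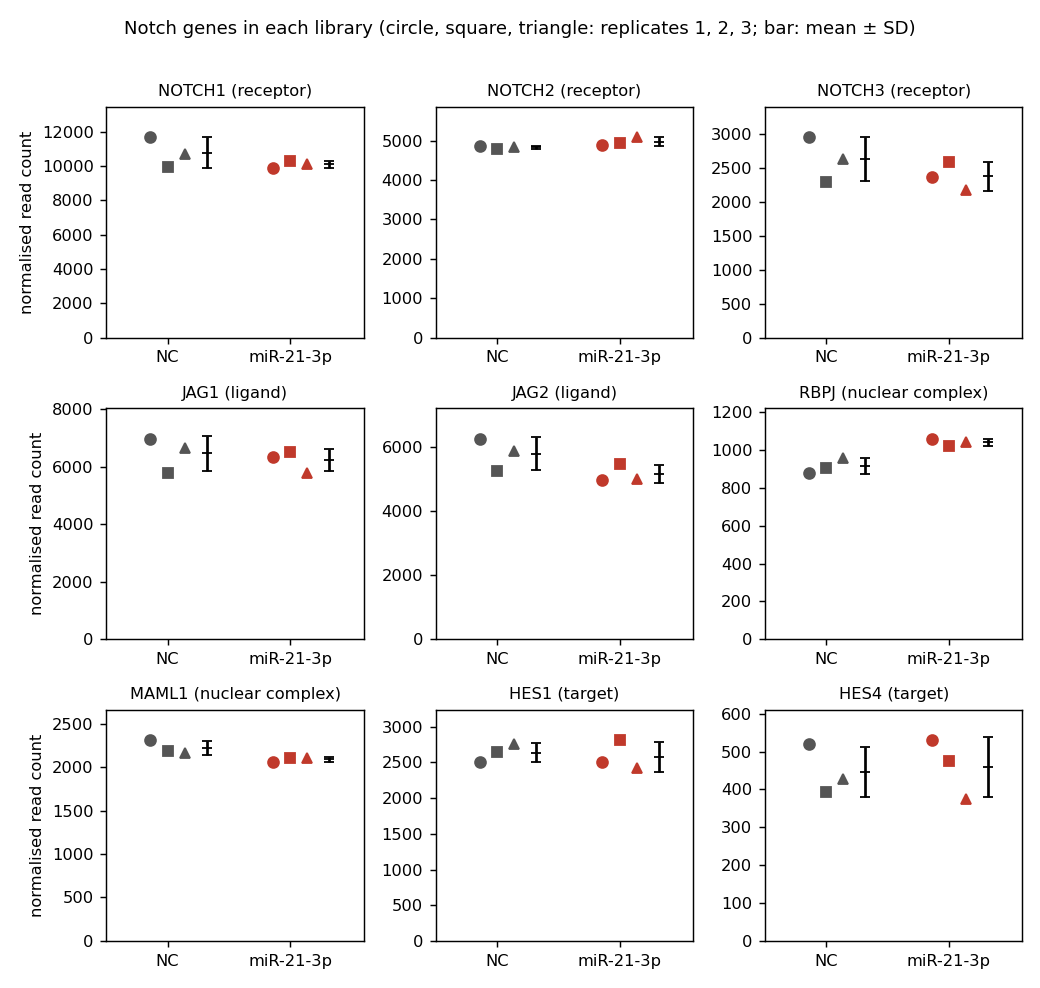
Normalised read counts of the 9 Notch genes in each of 3 NC and 3 miR-21-3p libraries; symbols are replicates 1 to 3, bars give the mean ± SD (n = 3), and each axis starts at 0. The groups lie apart for RBPJ, MAML1 and NOTCH2 and overlap for the other genes.

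NOTCH1, the receptor best known for its part in KC differentiation, gave 11700, 9930 and 10700 normalised counts in NC replicates 1 to 3. In the miR-21-3p libraries it gave 9890, 10300 and 10100. The groups overlapped, with NC replicate 1 the highest, and the NC values spread more widely (SD 887, n = 3) than the miR-21-3p values (SD 205, n = 3). The NOTCH1 difference was -0.091 on the log2 scale, with a 95% confidence interval (CI) of -0.21 to 0.031 and adjusted p = 0.312 (limma). It was -0.030 without NC replicate 1 and -0.15 without NC replicate 2, and was called in neither case. NOTCH2, a second receptor of epidermal cells, gave 4870, 4800 and 4830 in NC and 4890, 4950 and 5100 with miR-21-3p. Every miR-21-3p library was above every NC library, by a small margin. The NOTCH2 difference was 0.043 (CI -0.046 to 0.13, limma adjusted p = 0.528) and did not pass the test. NOTCH2 shares long stretches of near-identical sequence with the NOTCH2NL genes, so reads of these may be counted in its value. NOTCH3, a receptor also known from smooth muscle and KCs, gave 2960, 2300 and 2640 in NC and 2370, 2590 and 2170 with miR-21-3p. The ranges overlapped, and both groups spread widely, with an SD of 330 in NC and 210 with miR-21-3p. The NOTCH3 difference was -0.14 (CI -0.33 to 0.039, limma adjusted p = 0.284). It was called only when NC replicate 2, the lowest NC library for this gene, was left out (-0.24, limma adjusted p = 0.0263). The NOTCH3 difference shrank to -0.056 without NC replicate 1 and to -0.080 without miR-21-3p replicate 3. Over all alternatives the adjusted p of NOTCH3 ran from 0.0263 to 0.716.

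JAG2, a Jagged ligand of basal KCs, gave 6260, 5240 and 5860 in NC and 4980, 5470 and 4990 with miR-21-3p. In 2 of the 3 miR-21-3p libraries JAG2 was below every NC library, and miR-21-3p replicate 2 was above NC replicate 2. The mean was 5787 ± 514 (SD, n = 3) in NC and 5147 ± 280 (SD, n = 3) with miR-21-3p. The JAG2 difference was -0.17 on the log2 scale (CI -0.30 to -0.029), with adjusted p = 0.107 (limma), so it did not pass over all genes. Without NC replicate 2 it was -0.24 with adjusted p = 0.0076, and without NC replicate 1 it was -0.11 with adjusted p = 0.323, the ends of the range over all alternatives. An annotated gene on the same strand overlaps exons of JAG2 and was not analysed here, and how reads shared by both were counted is not given in the sources used here. JAG1, the other Jagged ligand, gave 6980, 5790 and 6640 in NC and 6350, 6520 and 5790 with miR-21-3p. The JAG1 groups overlapped, and the lowest value of each group was the same. Its difference was -0.054 (CI -0.20 to 0.091, limma adjusted p = 0.635) and changed sign, to 0.0027, without NC replicate 1. An annotated gene on the opposite strand overlaps exons of JAG1, and whether reads were counted by strand is not given in the sources used here. That gene had a mean value of 187.7.

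RBPJ, the protein that ties Notch signalling to DNA, gave 876, 905 and 959 in NC and 1060, 1020 and 1040 with miR-21-3p. All 3 miR-21-3p libraries were above all 3 NC libraries. The mean was 913.3 ± 42.1 (SD, n = 3) in NC and 1040 ± 20 (SD, n = 3) with miR-21-3p, which is 13.9% higher on the fitted scale. The RBPJ difference was 0.19 (CI 0.066 to 0.31), and its adjusted p of 0.0514 (limma) lay just above the threshold. It passed in 1 of 17 alternatives, a filter at a mean value of 100 chosen after seeing the data (adjusted p = 0.0481), and the range over alternatives was 0.0481 to 0.181. MAML1, the Mastermind coactivator that bridges RBPJ and histone acetyltransferases, gave 2310, 2190 and 2160 in NC and 2060, 2100 and 2110 with miR-21-3p. All 3 miR-21-3p libraries were below all 3 NC libraries, the nearest pair being NC replicate 3 and miR-21-3p replicate 3. The MAML1 difference was -0.086 (CI -0.19 to 0.015, limma adjusted p = 0.245) and did not pass.

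HES1, a repressor and a classic direct Notch target, gave 2500, 2650 and 2760 in NC and 2500, 2810 and 2420 with miR-21-3p. The HES1 ranges overlapped, and replicate 1 had the same value in both groups. Its difference was -0.035 (CI -0.17 to 0.097, limma adjusted p = 0.74) and changed sign, to 0.0087, without miR-21-3p replicate 3. HES4, a related repressor, gave 519, 393 and 427 in NC and 530, 475 and 374 with miR-21-3p. It was the most variable of the 9 genes between replicates, with a coefficient of variation of 14.6% in NC and 17.2% with miR-21-3p. The HES4 difference was 0.037 (CI -0.24 to 0.31, limma adjusted p = 0.874). Its sign turned without NC replicate 2 (-0.049) and without miR-21-3p replicate 1 (-0.072). The HES4 interval reached from 15.1% lower (-15.1%) to 24.1% higher. For HES1 the interval ran from -10.9% to 6.94%.

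**Figure D2:**
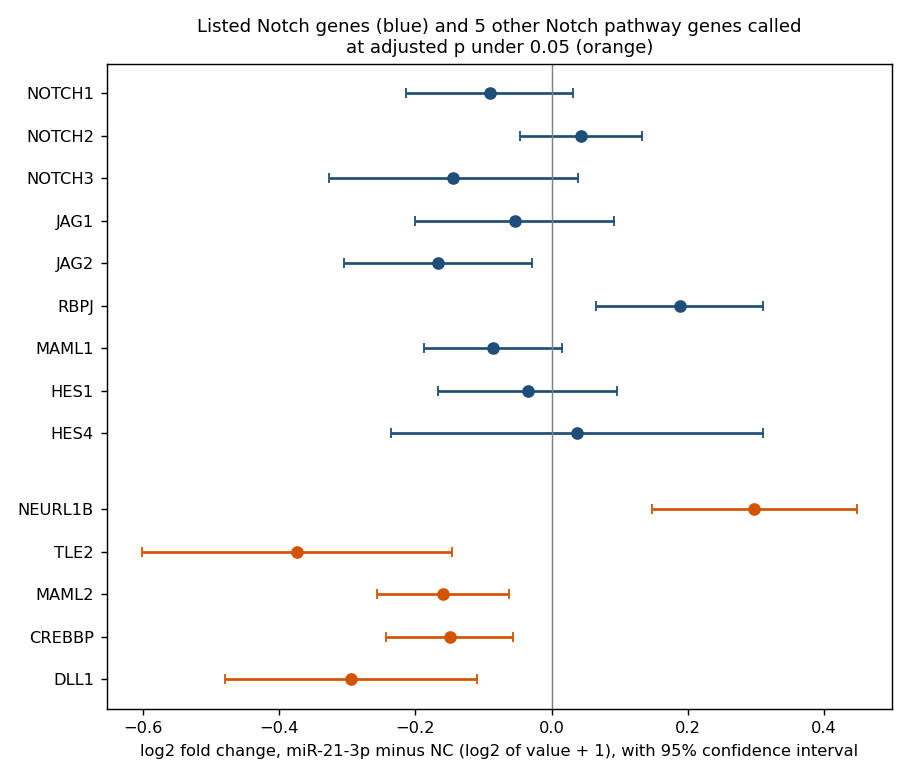
Log2 fold change (miR-21-3p minus NC, log2 of the value plus 1) with its 95% confidence interval for the 9 listed Notch genes in blue and for 5 called genes among the other Notch pathway genes in orange. The intervals of RBPJ and JAG2 leave out 0 without adjustment, and those of the other 7 listed genes cover it.

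Between NC libraries, replicate 1 was the highest of the group for 7 of the 9 genes, and replicate 2 was the lowest for 6. Over 10682 genes with a mean value of 200 or more, replicate 1 was the highest NC library for 37.2% and replicate 2 the lowest for 34.4%. Among miR-21-3p libraries, replicate 2 was the highest for 5 of the 9 genes, against 35.7% of those 10682 genes. The members share libraries, so these counts are a description. Without miR-21-3p replicate 2 the difference of JAG2 was -0.21 and that of NOTCH3 was also -0.21, beside -0.17 and -0.14 with all libraries.

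Levels were compared between genes per kilobase of annotated exon. In NC, HES1 was highest at 1279 ± 63.3 normalised counts per kilobase (SD, n = 3), and NOTCH1 followed at 1039 ± 85.5. JAG2 had 904.6 ± 80.3 per kilobase, a range that overlapped that of NOTCH1, and JAG1 had 695.8 ± 65.9. HES4 (399.2 ± 58.3 per kilobase) and MAML1 (373.6 ± 13.4) were not separated by their ranges. The same held for NOTCH2 (287.6 ± 2.09 per kilobase) and NOTCH3 (280.3 ± 35.1). RBPJ was lowest at 98.7 ± 4.55 per kilobase. Each length was the union of all annotated exons, 9298 bases for JAG1 and 6397 for JAG2, so the order of genes depends on this choice. Before division by length, JAG1 was above JAG2 in NC (means of 6470 and 5787). HES4 was then the lowest, at 446.3 beside 913.3 for RBPJ. The annotation behind these lengths may differ from the one used for counting.

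The makeup of receptors and ligands was described per library on the same scale, so the size of each share also depends on the lengths. NOTCH1 made up 65.1%, 64.3% and 64.5% of the summed level of the 3 receptors in NC replicates 1 to 3, and 63.7%, 63.5% and 64.6% in the miR-21-3p libraries. The share of NOTCH2 was 16.7% to 19.2% in NC and 18.9% to 20.1% with miR-21-3p, and that of NOTCH3 was 16.5% to 18.2% and 15.3% to 17.6%. Each receptor's ranges overlapped between groups. Of the summed level of the ligands JAG1 and JAG2, JAG1 made up 43.4%, 43.2% and 43.8% in NC and 46.7%, 45.1% and 44.4% with miR-21-3p. All 3 miR-21-3p libraries thus had a higher JAG1 share than any NC library, with means of 45.4% and 43.5%. With JAG1 and JAG2 alone in the sum, this share restates the values already given for them, and neither gene was called. For single genes, the groups lay apart for 31.3% of all genes tested. No test was run on these shares.

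**Figure D3:**
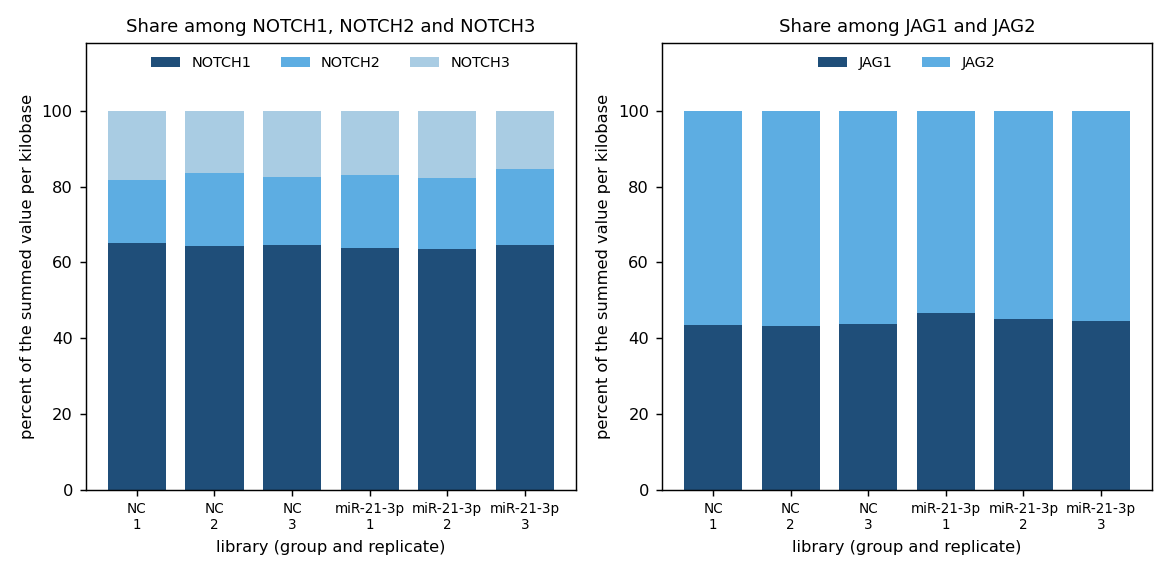
Share of each receptor among NOTCH1, NOTCH2 and NOTCH3 (left) and of each ligand among JAG1 and JAG2 (right) in each library, in percent of the summed value per kilobase of exon. NOTCH1 holds between 63.5% and 65.1% of the receptor level in the 6 libraries, and JAG1 holds 43.2% to 46.7% of the ligand level.

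Other genes of the pathway were read from a list of 68, of which 58 were tested and 10 were not analysed here. Of the 58, 1 rose and 5 fell (limma), or 10.3%, beside 10.8% of all genes tested. The median difference of the 58 was -0.056 on the log2 scale, beside 0.0045 for all genes tested. NEURL1B, a ubiquitin ligase that promotes uptake of Notch ligands, rose. It gave 550, 568 and 616 normalised counts in NC and 700, 753 and 679 with miR-21-3p, a difference of 0.30 (CI 0.15 to 0.45, limma adjusted p = 0.0206). The groups of NEURL1B lay apart.

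DLL1, a Delta ligand, fell. It gave 1030, 790 and 843 in NC and 707, 729 and 721 with miR-21-3p, a difference of -0.29 (CI -0.48 to -0.11, limma adjusted p = 0.0451). Without NC replicate 1, the highest NC library for DLL1, the difference was -0.18 and was not called. MAML2, a second Mastermind protein, fell and gave 2910, 2860 and 2860 in NC and 2500, 2670 and 2560 with miR-21-3p (-0.16, limma adjusted p = 0.0406). CREBBP, a histone acetyltransferase recruited by the Notch complex, fell and gave 2880, 2850 and 2810 in NC and 2610, 2530 and 2560 with miR-21-3p (-0.15, limma adjusted p = 0.0433). TLE2, a corepressor of the Groucho family that is known to act with HES proteins, fell and gave 333, 260 and 292 in NC and 230, 240 and 210 with miR-21-3p (-0.37, limma adjusted p = 0.0398). Over the whole list the groups lay apart for 16 of the 58, against 31.3% of all genes tested.

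The 6 calls of the list varied with single libraries left out, as did the calls of the whole table. Over all alternatives the log2 difference ran from -0.162 to -0.139 for CREBBP, -0.185 to -0.138 for MAML2 and 0.256 to 0.345 for NEURL1B. For DLL1 it ran from -0.374 to -0.183 and for TLE2 from -0.461 to -0.283. The count among the 58 was 0 without NC replicate 1, NC replicate 3 or miR-21-3p replicate 1, and 13 without NC replicate 2. In the same fits 544, 179, 279 and 2961 of all 14782 genes tested were called, in place of 1600. The count of the list was 2 without miR-21-3p replicate 2 (TLE2 and MAML2), beside 1539 of all genes, and 1 without miR-21-3p replicate 3 (NEURL1B), beside 368. With scaling by library size alone it was 3, with DLL1 and CREBBP among those no longer called. With the replicate number as a block it was also 3, with MAML2 and CREBBP among those no longer called. The call of DLL1 was lost without a filter on low values as well.

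Other steps of the pathway were read by role, picked because they held no call. With 10.8% of all genes tested called and 4 to 8 genes in each of these roles, their counts of 0 are a description only. None of 8 genes of the cleavage step was called by limma, among them ADAM10, ADAM17 and NCSTN, and their differences ran from -0.11 to 0.081 on the log2 scale. None of 6 genes for receptor glycosylation was called, with differences from -0.21 to 0.29. EOGT, which adds a sugar to the EGF-like repeats of receptors, was the highest, with 191, 187 and 160 in NC and 221, 203 and 235 with miR-21-3p (limma adjusted p = 0.0937), and its groups lay apart. LFNG was the lowest at -0.21 (623, 673 and 639 in NC against 566, 534 and 573 with miR-21-3p, limma adjusted p = 0.0569), and its groups lay apart too. LFNG, which adds sugars that change how receptors respond to ligands, passed in 1 of 17 alternatives, edgeR with DESeq2 size factors (adjusted p = 0.0492), over a range of 0.0492 to 0.156. None of 8 genes of receptor turnover was called, NUMB and FBXW7 among them, with differences from -0.16 to 0.12. Of further HES and HEY targets 4 were tested and none was called, HES2 at 0.013, HEY1 at 0.015, HES7 at 0.14 and HES5 at 0.27. The signs of HES2 and HEY1 turned with single libraries left out. With 1 library left out at a time, HES5 ran from 0.11 (without NC replicate 1) to 0.46 (without NC replicate 3), and HES7 from 0.063 (without NC replicate 3) to 0.29 (without NC replicate 1), being 0.077 without NC replicate 2. HES5 and HES7 were low, at 36.5 to 60.4 and 59.6 to 82.3 normalised counts over the 6 libraries. The feedback gene NRARP, a Notch target that limits the nuclear complex, gave 1710, 1430 and 1740 in NC and 1490, 1500 and 1390 with miR-21-3p (-0.15, limma adjusted p = 0.186). NRARP was called without NC replicate 2 (-0.24, limma adjusted p = 0.00886) and stood at -0.10 without NC replicate 3, and its adjusted p over all alternatives ran from 0.00886 to 0.498.

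**Figure D4:**
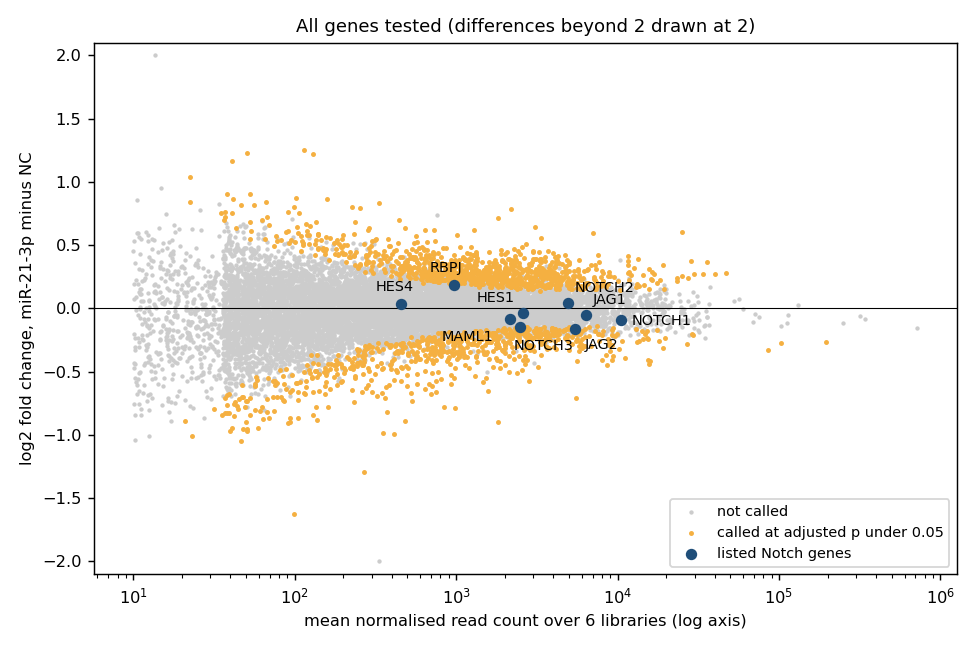
Mean normalised read count over 6 libraries (log axis) against the log2 fold change (miR-21-3p minus NC) of all 14782 genes tested, with called genes in orange and the 9 listed Notch genes in blue. The listed genes lie between -0.17 and 0.19, and 2 genes beyond a difference of 2 are drawn at the limit.

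Suprabasal differentiation genes, which KCs switch on as they leave the basal layer, were read from a list of 23, with 15 tested and 8 not analysed here. None rose and 2 fell (limma), or 13.3%, beside 10.8% of all genes tested. The median difference of the 15 was 0.045 on the log2 scale, beside 0.0045 for all genes tested, and the median size of the difference without its sign was 0.25, beside 0.11. At an unadjusted p under 0.05 limma took 7 of the 15, where 28.5% of all genes passed, and the groups lay apart for 6 of the 15, against 31.3%. TGM1, a transglutaminase that crosslinks the cornified envelope, gave 3410, 2850 and 3280 in NC and 2610, 2830 and 2350 with miR-21-3p (-0.29, CI -0.46 to -0.13, limma adjusted p = 0.0297). FLG, which encodes filaggrin, gave 4140, 3440 and 3950 in NC and 3330, 3300 and 3060 with miR-21-3p (-0.25, CI -0.39 to -0.11, limma adjusted p = 0.0318). Of the 15, 8 were higher and 7 lower with miR-21-3p, and the others lay in both directions without a call. GRHL3 came nearest among these, at 0.19 (limma adjusted p = 0.0527) with its groups apart, and was not followed over the alternatives. KRT10, an early suprabasal keratin, stood at 0.30 (limma adjusted p = 0.0728), or 0.18 without NC replicate 2. With the replicate number as a block, KRT10 passed as a rise (limma adjusted p = 0.0478). KRT1, its partner, stood at -0.050 (limma adjusted p = 0.87). IVL, which encodes involucrin, stood at -0.039 (limma adjusted p = 0.688). The signs of KRT1 and IVL turned with single libraries left out. The count of the list was 0 without NC replicate 1, NC replicate 3, miR-21-3p replicate 1 or miR-21-3p replicate 3. In these fits 544, 179, 279 and 368 of all 14782 genes tested were called. Without NC replicate 2 the list count was 3, of which 1 rose, beside 2961 of all genes.

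Of 15 basal KC genes, all tested, none rose and 4 fell (limma), or 26.7%, beside 10.8% of all genes tested. The median difference of the 15 was -0.090 on the log2 scale, beside 0.0045 for all genes tested. KRT15, a keratin of basal cells, gave 95100, 91500 and 99500 in NC and 77100, 79400 and 71600 with miR-21-3p (-0.33, CI -0.46 to -0.19, limma adjusted p = 0.0101). Genes of the hemidesmosome and its laminin anchor made up the other calls. LAMA3 gave 8400, 8000 and 8270 in NC and 7330, 7320 and 6750 with miR-21-3p (-0.21, limma adjusted p = 0.0192). DST gave 10100, 9520 and 9930 in NC and 8970, 8770 and 8470 with miR-21-3p (-0.17, limma adjusted p = 0.0293). ITGB4 gave 21400, 17700 and 19900 in NC and 15900, 17900 and 15400 with miR-21-3p, with overlapping groups (-0.26, limma adjusted p = 0.0381). KRT5, the main basal keratin, stood at 0.026 (limma adjusted p = 0.841), with a sign that turned with single libraries left out. TP63, a basal cell regulator, stood at -0.13 (limma adjusted p = 0.102), and was called without NC replicate 2 (-0.16, limma adjusted p = 0.0469, over a range of 0.0469 to 0.321). The count of the list was 1, KRT15, without NC replicate 1 or without miR-21-3p replicate 3. It was 7 without NC replicate 2, and 0 without NC replicate 3 or miR-21-3p replicate 1. Over all 14782 genes tested the same fits called 544, 368, 2961, 179 and 279, in this order. The call of DST was also lost with the replicate number as a block.

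RBPJ had the smallest adjusted p of the 9 genes, and the 5 genes whose pattern over the 6 libraries was nearest to it were found among 10134 genes. They were HBS1L, SERBP1P5, SLPI, PSMC6 and RBBP5, with a root mean square difference of 0.018 to 0.022 in centred log2 values. HBS1L was nearest, with 680, 726 and 752 normalised counts in NC and 823, 814 and 817 with miR-21-3p. SLPI, a secreted protease inhibitor of epithelia, was the one of the 5 that was called (0.21, limma adjusted p = 0.0257). Its call was lost without NC replicate 1, NC replicate 3, miR-21-3p replicate 1 or miR-21-3p replicate 3 (adjusted p up to 0.117). SERBP1P5 is a pseudogene, and its reads may come from its parent gene SERBP1.

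Markers of KCs were read to check the labelled cell line. Of 10 KC markers 9 were measured, with KRT5 the most abundant, and their summed level ran from 304810 to 316830 normalised counts in NC and from 310180 to 333280 with miR-21-3p. KRT6A, a keratin of activated KCs (0.34, limma adjusted p = 0.00203), and EPCAM, an epithelial adhesion molecule (0.18, limma adjusted p = 0.0282), rose among them. These 2 calls were 22.2% of the 9, beside 10.8% of all genes tested. Of the 9 markers, 5 were higher and 4 lower with miR-21-3p. The rise of EPCAM was no longer called without any 1 library other than NC replicate 2 or with the replicate block (adjusted p up to 0.0919), while KRT6A was called in all 17 alternatives. Markers of other cell types were read in the same way. Of 7 fibroblast markers only COL1A1 was measured, at 560, 390 and 478 in NC and 372, 378 and 364 with miR-21-3p (limma adjusted p = 0.0635). COL1A1 was called without NC replicate 2 (adjusted p = 0.00181) and by DESeq2 (adjusted p = 0.0278), over a range of 0.00181 to 0.211. Of 7 melanocyte markers MITF and PMEL were measured, with a sum of 630 to 640 in NC and 585 to 616 with miR-21-3p. Of 8 leukocyte markers only CD14 was measured, at 58.7 to 92.2 over the 6 libraries. Of 7 endothelial markers VWF and CDH5 were measured, with a sum of 1197, 1087 and 1119 in NC and 877, 925 and 883 with miR-21-3p. VWF, the more abundant, stood at -0.016 (limma adjusted p = 0.893). CDH5, an endothelial cadherin, fell from 477, 286 and 393 in NC to 165, 178 and 122 with miR-21-3p (-1.30, limma adjusted p = 0.00258), and was called in all 17 alternatives. The other markers of these lists were not analysed here. The part of CDH5 or COL1A1 in the Notch values was not tested.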

How the data were processed

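Per the labels, poly(A) RNA of HaCaT cells was sequenced with an Illumina stranded kit. The submitters' processing notes name bcl2fastq 2.18.12, cutadapt 1.15, TopHat2 2.1.1, featureCounts, Subread 1.5.2 and DESeq2; genome build and annotation are not given in the sources used here. The deposited signal values were gene counts that the authors divided by 1 size factor per library and rounded to 3 significant digits. Whole reads were recovered from the steps of low values (100.0% whole within 0.1 reads). For higher values the recovered reads are estimates, because of the rounding. Rows thinned out below a mean of 36, with 128 between 26 and 36 and 505 between 36 and 46. Since the values were not raw counts, the edgeR test planned as the main one was run on recovered reads as an added alternative. Genes with a mean of 10 or more were compared with limma 3.58.1 (R 4.3.3, mean-variance trend, two-sided) on log2(value + 1), which understates changes of low genes, with Benjamini-Hochberg adjustment over all 14782 genes and calls under 0.05. On recovered reads edgeR 4.0.16 called 1640 genes and DESeq2 1.42.0 called 1590. Libraries within each group differed by more than sampling noise. Lengths were GENCODE exon unions. Genes named by rule were all members, every called gene of the other pathway list (1 of the 6 is counted but not reported here), up to 6 called genes by adjusted p in the suprabasal and basal lists, and the 5 genes nearest in pattern to the member of smallest adjusted p; other genes were named after their values were seen. The members and lists were chosen with earlier results of these data known. Scripts were tested on simulated data.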

Additional observations from a re-analysis of the deposited data

How the results depend on the processing

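Results were recomputed under 17 alternatives, 12 planned and 5 added after seeing the data (edgeR's quasi-likelihood test with TMM on recovered reads, first planned as the main test, TMM scaling, pseudocounts of 0.1 and 10, and a filter at a mean of 100). Of 153 member values, 146 kept their sign and their side of the threshold, 3 passed it and 4 changed sign. With 1 library left out at a time, the log2 difference of JAG1 ran from -0.13 to 0.0027, that of HES1 from -0.099 to 0.0087 and that of HES4 from -0.072 to 0.18. The other members kept their sign, over -0.15 to -0.030 for NOTCH1, 0.026 to 0.056 for NOTCH2, -0.24 to -0.056 for NOTCH3, -0.24 to -0.11 for JAG2, 0.16 to 0.22 for RBPJ and -0.11 to -0.0575 for MAML1. Among other named genes without a call the sign turned for KRT1 (-0.27 to 0.11), IVL (-0.094 to 0.013), KRT5 (-0.017 to 0.071), HES2 (-0.021 to 0.049), VWF (-0.044 to 0.033) and HEY1 (-0.10 to 0.12, and -0.0031 with limma-voom); the cause was not tested. The count of called members was 0 in all but 2 alternatives: 1, RBPJ, with the filter at a mean of 100, where fewer genes were tested, and 2 without NC replicate 2. Leaving out 1 library at a time gave 0 to 2 called members, 179 to 2961 called genes in the whole table, 0 to 13 other Notch pathway genes, 0 to 3 suprabasal genes and 0 to 7 basal genes. The count of other Notch pathway genes was 3 with scaling by library size alone; the cause was not tested. Of 255 values of the other 15 called genes named, 60 lost the call, 53 of them with 1 library left out and so fewer samples, and none changed sign. HES5 and HES7 had no value with the filter at a mean of 100. The scaling alternatives moved the median of all genes by under 0.1 on the log2 scale.

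The groups share replicate numbers. With the replicate block, 1202 genes were called in place of 1600, 0 members, 3 other Notch pathway genes in place of 6, 3 suprabasal genes and 3 basal genes. KRT10 passed with the block (adjusted p = 0.0478, over a range of 0.0478 to 0.267). The deviations of same-numbered libraries from their group means correlated at -0.077, -0.295 and -0.315 over 12173 genes, those of differently numbered libraries at -0.161 to 0.43, and no library correlated best with its own number. The numbers were not taken as pairs, and no pairs were chosen from the values. The intervals of the members are unadjusted and rest on 3 libraries a group, and those of RBPJ and JAG2 left out 0 without a call. Rounding to 3 digits adds an error of at most 0.5% to each value.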
